A study of Rattus norvegicus with 25 samples.

Results

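The miRNAs described here are the arms of 4 hairpins, miR-151, miR-423, miR-340 and miR-652, in the small RNA of rat sperm. They were chosen by measured values of these libraries, namely the ranking of miRNAs by their difference between sperm of males that took morphine and males that took saline, and all rows whose names start with rno-miR-151-, rno-miR-423-, rno-miR-340- or rno-miR-652- were then included. This gave 8 of the 562 miRNA rows, of which 7 were among the 317 that passed the filter on low counts. The eighth, rno-miR-652-5p, had 2 reads in 1 library and none in the other 24, where a count of 0 allows up to 3 counts per library.

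Sperm was collected from the cauda epididymis of Sprague-Dawley males (the F0 generation) after daily 3-h sessions of lever pressing, over 60 days, for intravenous morphine at 0.75 mg/kg/infusion or for saline. Nonabstinent males were sampled at the end of self-administration (F0_SAL, n = 7; F0_MOR, n = 7) and abstinent males 90 days later (F0_ABS-SAL, n = 5; F0_ABS-MOR, n = 6). Saline controls went through the same sessions. The abstinent males were also older and further from the sessions when sampled, so that abstinence, age and any difference in batch cannot be told apart. Sperm was enriched by a double swim-up in 1 of 2 media, and which library came from which medium is not given in the sources used here.

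A miRNA hairpin is cut into a short duplex whose strands are the 5p and the 3p arm. Usually 1 strand is loaded into an Argonaute protein and the other is degraded, and the loaded strand recognises its targets mainly through the seed, bases 2 to 8 from its 5′ end. Sperm carries miRNAs made in the testis and gains others during its passage through the epididymis. According to RefSeq (GRCr8), Mir151 lies within Ptk2, which encodes focal adhesion kinase. Mir423 lies within Nsrp1, which encodes a splicing regulator, Mir340-1 within Rnf130, which encodes a ubiquitin ligase, and Mir652 within Tmem164, which encodes a membrane protein. Another annotated gene, Mir151b, overlaps Mir151, and how reads shared by both would have been counted is not given in the sources used here.

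Mature sequences from RefSeq (GRCr8), matched for 5 of the 8 arms in the table used here, are shown to let their seeds be compared, in RNA letters with the seed in capitals. The other 3 arms, miR-151-5p, miR-151-3p and miR-423-3p, are only named.
rno-miR-423-5p: uGAGGGGCagagagcgagacuuuu
rno-miR-340-5p: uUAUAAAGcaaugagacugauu
rno-miR-340-3p: uCCGUCUCaguuacuuuauagcc
rno-miR-652-5p: aCAACCCUaggagggggugccau
rno-miR-652-3p: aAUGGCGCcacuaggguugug

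No seed was shared among these 5 arms, so they form 5 seed groups. miR-423-5p lies at chr10:62412317-62412340 on the minus strand. Among all rat entries of the table, the seed of miR-423-5p was shared by 1 other mature miRNA, rno-miR-3573-5p, and the seeds of the remaining 4 by none. The whole hairpins of miR-340 (chr10:34894650-34894747, plus strand) and miR-652 (chrX:111140079-111140159, plus strand) are given with both arms in capitals, since the data below turn on how unequally the arms of a hairpin were found.
Mir340-1: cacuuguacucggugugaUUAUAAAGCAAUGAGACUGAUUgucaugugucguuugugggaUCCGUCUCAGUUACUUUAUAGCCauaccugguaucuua
Mir652: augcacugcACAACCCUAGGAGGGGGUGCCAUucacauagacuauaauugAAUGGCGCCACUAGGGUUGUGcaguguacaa

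The libraries held 1032386 to 3203211 miRNA counts. Group medians were 1701012 (F0_SAL), 1428308 (F0_MOR), 2334377 (F0_ABS-SAL) and 2134169 (F0_ABS-MOR). All 10 listed miRNAs of male germ cells were present, summing to 363238 to 1408260 normalized counts per library (TMM-scaled counts at a common library size). Lists of other cells summed to 8646 to 12673 for leukocytes, 565 to 5035 for the erythroid list and 1003 to 5182 for endothelium. They summed to 13429 to 35656 for epithelium and 23928 to 149671 for muscle. Of the 4 erythroid miRNAs listed, 3 were in the matrix. No listed row of the matrix was at 0 across all libraries, and this was not examined within each group. Fewer cells of a type and less RNA per cell cannot be told apart in bulk sperm RNA.

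In sperm of morphine-taking males, the arm of miR-151 that stood out was miR-151-5p, and its partner did not. Normalized counts of miR-151-5p ran from 262 over a median of 409 to 602 in the 7 F0_SAL libraries and from 469 over a median of 723 to 1567 in the 7 F0_MOR libraries. Each of the 7 F0_MOR libraries exceeded the mean of F0_SAL, and 5 of 7 exceeded every F0_SAL library, with library T (1567) and library A (1117) far above the rest. After abstinence the 5 F0_ABS-SAL libraries stood at 275, 515, 379.6, 758 and 261, and the 6 F0_ABS-MOR libraries ran from 289 over a median of 421 to 716. Group means ± SD were 437 ± 130.1, 833 ± 386, 438 ± 206 and 451 ± 162 in F0_SAL, F0_MOR, F0_ABS-SAL and F0_ABS-MOR. Only the F0_MOR mean was set apart, and the other 3 means differed by less than the SD of any group.

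The partner arm miR-151-3p was the more abundant strand and nearly level across the 4 groups. Its normalized counts ran from 599 over a median of 803 to 1019.5 in F0_SAL and from 660.2 over 943 to 1014 in F0_MOR. They were 801, 572, 847, 1117 and 657 in F0_ABS-SAL, and ran from 601 over 779 to 1475 in F0_ABS-MOR. Means ± SD were 845 ± 158, 853 ± 143, 799 ± 209 and 877 ± 346 in the order of groups above, and every pair of groups overlapped, as for miR-151-5p. In F0_MOR against F0_SAL, the comparison that chose the hairpins, the log2 fold change was 0.93 ± 0.27 (SE) for miR-151-5p and 0.01 ± 0.20 for miR-151-3p, which placed them 2nd and 306th of the 317 miRNAs by p-value. These and all values of F0_MOR against F0_SAL are descriptions with no test, and 0 of 317 miRNAs (0%) were called in that comparison, with 23 at an unadjusted p under 0.05, where a miRNA was called if its adjusted p was below 0.1 and its log2 fold change passed 0.58 in size. The paper, using DESeq2 with the same criteria, reported rno-miR-150-5p as differing in this comparison. Here edgeR did not call it.

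The arms of miR-423, a miRNA found in most tissues, had lower counts, and both had their highest mean in F0_MOR. Normalized counts of miR-423-5p ran from 29.0 over a median of 56.1 to 93.8 in F0_SAL and from 37.2 over 88.5 to 146 in F0_MOR. The F0_MOR libraries fell far apart, with N (146), M (143) and A (127) above every F0_SAL library and B (41.5) and G (37.2) below the F0_SAL mean. Counts were 84.5, 35.1, 57.3, 67.2 and 53.4 in F0_ABS-SAL and ran from 37.9 over 48.4 to 75.1 in F0_ABS-MOR. Means ± SD were 55.6 ± 19.7, 95.2 ± 45.4, 59.5 ± 18.2 and 53.6 ± 16.6, with F0_MOR highest and the other 3 within 1 SD of each other.

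For miR-423-3p, normalized counts ran from 97.4 over 158 to 342 in F0_SAL and from 158 over 206 to 329.8 in F0_MOR. They were 143, 122, 214, 114 and 138 in F0_ABS-SAL and ran from 88.5 over 155 to 216 in F0_ABS-MOR. Means ± SD were 186 ± 92.9, 223 ± 62.2, 146 ± 39.8 and 157 ± 46.6, and the highest single library belonged to F0_SAL. The log2 fold change of F0_MOR against F0_SAL was 0.79 ± 0.29 for the 5p arm, ranked 6th by p-value, and 0.27 ± 0.26 for the 3p arm, ranked 119th.

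miR-652 was measured through 1 arm only, miR-652-3p. Normalized counts ran from 49.5 over a median of 86.2 to 115 in F0_SAL and from 93.7 over 154 to 185 in F0_MOR, with 6 of 7 F0_MOR libraries above every F0_SAL library. They were 149.6, 156, 194, 215 and 112 in F0_ABS-SAL and ran from 82.7 over 165 to 209 in F0_ABS-MOR. F0_SAL was thus the group set apart, with 4 of 5 F0_ABS-SAL libraries above all of its 7. Means ± SD were 88.2 ± 22.7, 142 ± 32.4, 165 ± 40.0 and 157 ± 47.1, and the last 3 differed by less than their SDs. The log2 fold change of F0_MOR against F0_SAL was 0.69 ± 0.22, ranked 3rd by p-value.

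miR-340 was ranked for a difference in the opposite direction, lower in F0_MOR. Its 5p arm was the most abundant of the 8 arms, 29th of 562 miRNAs by mean level. Normalized counts of miR-340-5p ran from 7029 over a median of 10001 to 13995 in F0_SAL and from 6002 over 8231 to 9091 in F0_MOR. Each of the 7 F0_MOR libraries was lower than the mean of F0_SAL, and 3 of 7 were lower than every F0_SAL library. Counts were 9120.4, 9739.8, 7860.35, 5661 and 8377 in F0_ABS-SAL and ran from 5632 over 6825 to 8762 in F0_ABS-MOR. Means ± SD were 10174 ± 2251, 7737 ± 1258, 8152 ± 1565 and 7093 ± 1368, so the mean of F0_ABS-SAL, too, was lower than that of F0_SAL, a direction that turned with scaling by total miRNA count (log2 fold change 0.08 in place of −0.32). The log2 fold change of F0_MOR against F0_SAL was −0.39 ± 0.16, ranked 10th by p-value, and −0.19 when libraries were scaled by total miRNA count alone.

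The minor arm miR-340-3p ran from 127 over a median of 235 to 366 normalized counts in F0_SAL and from 111 over 242 to 276 in F0_MOR. It was at 176, 139, 133, 129 and 214 in F0_ABS-SAL and ran from 82.5 over 197 to 301 in F0_ABS-MOR. Means ± SD were 242 ± 81.3, 214 ± 64.8, 158 ± 36.4 and 199 ± 92.0. F0_ABS-SAL was lowest in mean, and every pair of groups overlapped, as for all 7 arms. Of all 317 miRNAs, 0 (0%) had groups not overlapping in F0_MOR against F0_SAL and 0 (0%) in F0_ABS-MOR against F0_ABS-SAL. The count was 22 (6.94%) in F0_ABS-SAL against F0_SAL and 11 (3.47%) in F0_ABS-MOR against F0_MOR. Its log2 fold change of F0_MOR against F0_SAL was −0.17 ± 0.27, ranked 188th, and became 0.03 with scaling by total miRNA count.

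**Figure D1:**
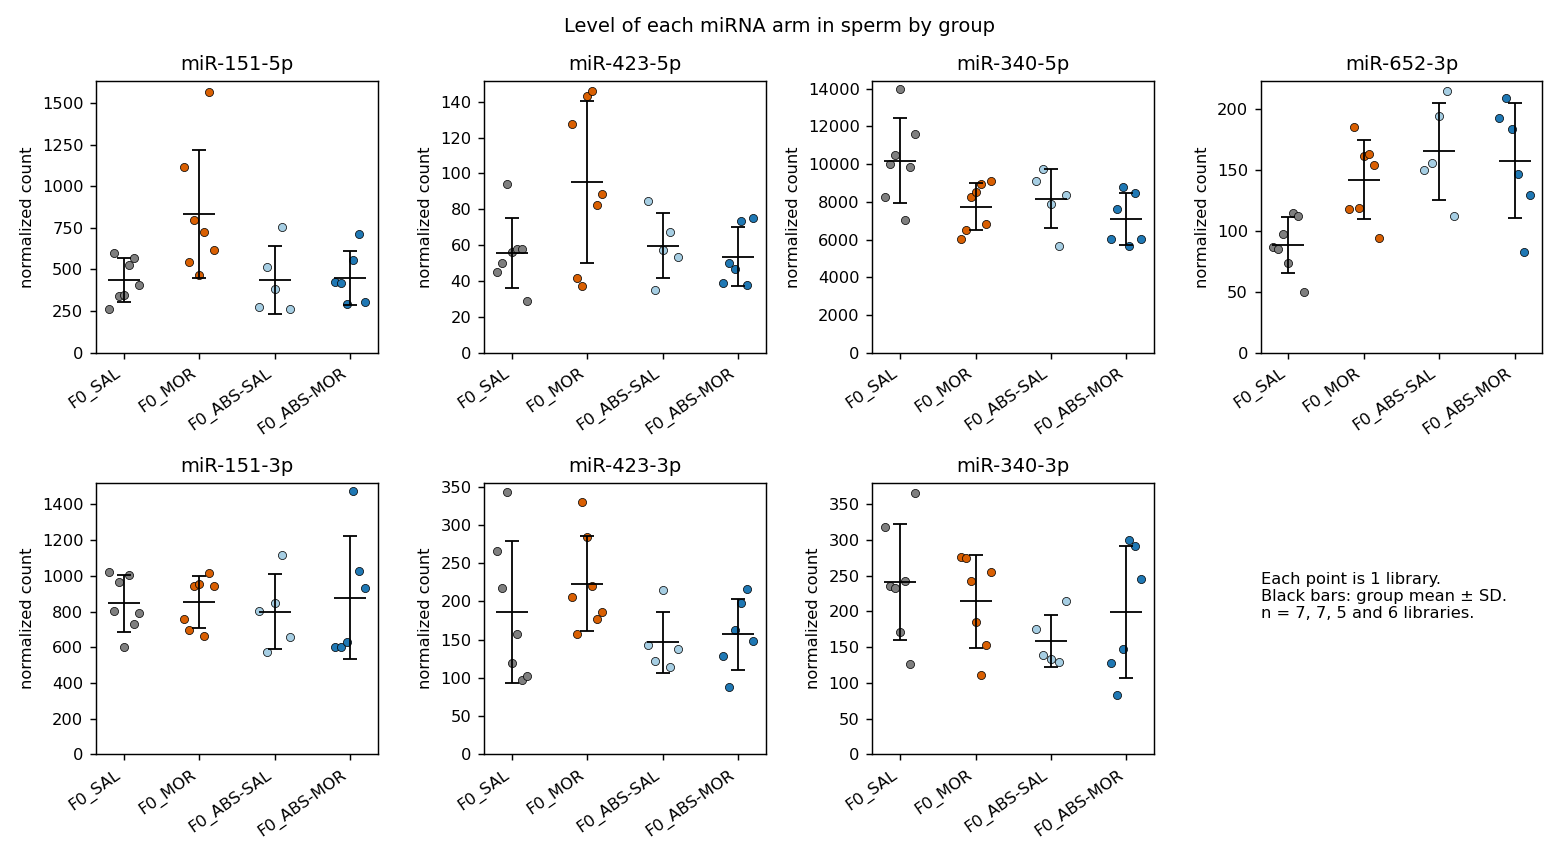
Normalized counts (linear axes from 0) of the 7 arms with enough reads, by group, with 1 point per library and black bars for the group mean ± SD. miR-151-5p and miR-423-5p have their highest mean in F0_MOR (833 and 95.2), miR-652-3p its lowest in F0_SAL (88.2) and miR-340-5p its highest in F0_SAL (10174).

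The F0_MOR minus F0_SAL difference does not use the 11 abstinent libraries, so the treatment comparison among abstinent males could be tested. These libraries did enter the spread behind the ranks by p-value given above, which come from 1 model of 4 groups. The comparison asked whether the differences seen at the end of self-administration were present 90 days later. None of the 7 arms was called between F0_ABS-MOR and F0_ABS-SAL by edgeR's quasi-likelihood test, nor was any of the 317 miRNAs (0%, with 4 at an unadjusted p under 0.05 and 0 called by DESeq2 and limma-voom). The log2 fold change was 0.05 for miR-151-5p, with a 95% interval from −0.58 to 0.67, and 0.14 for miR-151-3p, from −0.33 to 0.60. miR-423-5p differed by −0.15, from −0.82 to 0.52, and miR-423-3p by 0.10, from −0.50 to 0.70. For miR-652-3p it was −0.07, from −0.56 to 0.43. miR-340-5p differed by −0.20, from −0.58 to 0.18, and miR-340-3p by 0.33, from −0.29 to 0.94.

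The adjusted p by edgeR was 1.00 for each of the 7 arms. Whether the treatment difference itself differed between timepoints was not tested, since the earlier difference chose the hairpins. The arms' median was 0.05 against −0.01 over all 317 miRNAs, and 4 of 7 lay above 0. Of these small differences, those of miR-151-5p, miR-151-3p, miR-423-3p, miR-340-3p and miR-652-3p changed sign in at least 1 alternative setting.

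**Figure D2:**
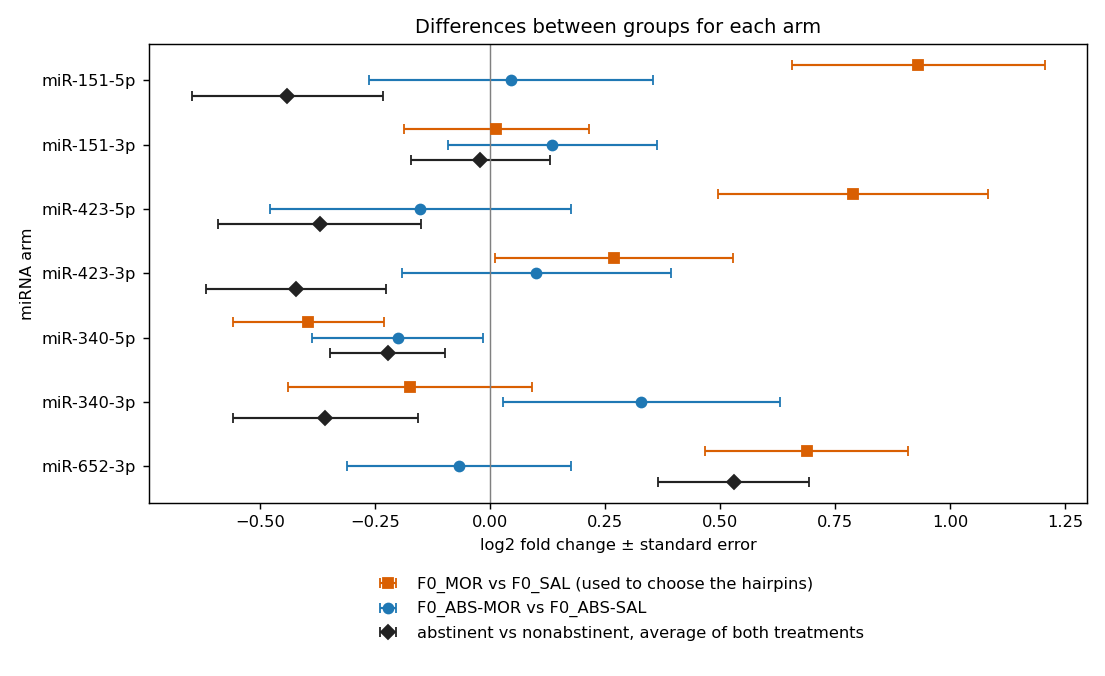
Log2 fold change ± SE (x axis) of each arm (y axis) in F0_MOR against F0_SAL (squares, the comparison that chose the hairpins), F0_ABS-MOR against F0_ABS-SAL (circles) and abstinent against nonabstinent males averaged over both treatments (diamonds). The squares of miR-151-5p, miR-423-5p and miR-652-3p lie at 0.69 to 0.93, and their circles at −0.15 to 0.05.

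Each treatment's own timepoint difference is given for the 3 arms that ranked high by a higher level in F0_MOR. From F0_MOR to F0_ABS-MOR the log2 fold change was −0.88 ± 0.29 for miR-151-5p, −0.84 ± 0.30 for miR-423-5p and 0.15 ± 0.22 for miR-652-3p. From F0_SAL to F0_ABS-SAL it was 0.00 ± 0.30, 0.10 ± 0.32 and 0.91 ± 0.24. With scaling by total miRNA count the values in saline males were 0.36, 0.45 and 1.26, and without library R of F0_ABS-SAL that of miR-151-5p was −0.34. Their partner arms were at 0.04 ± 0.21 (miR-151-3p) and −0.51 ± 0.27 (miR-423-3p) in morphine males and at −0.08 ± 0.22 and −0.34 ± 0.28 in saline males. These comparisons share libraries with the one that chose the hairpins and were not tested.

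The average of both timepoint differences does not use the F0_MOR minus F0_SAL difference and was tested over all miRNAs with edgeR. It shares the nonabstinent libraries with the ranking, so its p-values are not fully independent of the choice of hairpins. No arm met both criteria of a call (0 of 7), against 110 of 317 miRNAs (34.7%). On the adjusted p alone 3 of 7 passed, against 178 of 317 (56.2%), so the arms were called no more often than miRNAs in general. miR-652-3p was higher in abstinent males by 0.53 ± 0.16 (edgeR adjusted p = 0.0103). Of the abstinent libraries, 4 of 5 F0_ABS-SAL ones exceeded every F0_SAL library, whose low values entered the choice of this miRNA, and 2 of 6 F0_ABS-MOR ones exceeded every F0_MOR library while 1 was lower than all of them. miR-151-5p was lower by −0.44 ± 0.21 (adjusted p = 0.0792) and miR-423-3p by −0.42 ± 0.20 (adjusted p = 0.0766). Both lost this with scaling by total miRNA count, at −0.17 (adjusted p = 0.548) and −0.16 (adjusted p = 0.582), and with 1 scaling factor from miRNA and other ncRNA counts joined (adjusted p = 0.171 and 0.271).

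The remaining arms did not pass, with values of −0.37 ± 0.22 for miR-423-5p (adjusted p = 0.166), −0.36 ± 0.20 for miR-340-3p (adjusted p = 0.143), −0.22 ± 0.12 for miR-340-5p (adjusted p = 0.140) and −0.02 ± 0.15 for miR-151-3p (adjusted p = 0.930). The arms' median was −0.36 against −0.02 over all miRNAs tested. Scaling by total miRNA count alone moved the median of all miRNAs to 0.26, miR-340-5p to 0.07, miR-151-3p to 0.26 and miR-652-3p to 0.81, and miR-652-3p then met both criteria (edgeR adjusted p = 7.32e-04). Without library Y of F0_ABS-SAL, miR-652-3p also met both (0.58, adjusted p = 0.00603), and without library R of F0_ABS-SAL, miR-151-5p did (−0.61, adjusted p = 0.0193). Markers of other cells moved with this comparison, too. Both endothelial, 3 of 7 epithelial, 3 of 4 tested muscle and 1 of 7 leukocyte miRNAs were called higher in abstinent males, and 1 of 10 germ cell and 2 of 3 tested erythroid miRNAs were called lower (0 of each with total count scaling). Their part in the differences of the arms was not tested.

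Whether the arms of a hairpin moved together was examined through their ratio within each library, which needs no scaling between libraries. Reads of different sequences are ligated and amplified with different efficiency, so the ratio of reads is not a ratio of molecules, but it can be compared between libraries. For miR-151 the mean log2 ratio of 5p to 3p counts was −0.99 ± 0.57 (SD) in F0_SAL and −0.13 ± 0.61 in F0_MOR, against −0.95 ± 0.58 in F0_ABS-SAL and −0.95 ± 0.50 in F0_ABS-MOR. The 3p arm had 1.98 times the counts of the 5p arm in F0_SAL and 1.10 times in F0_MOR. The 5p arm outnumbered the 3p arm in 3 of 25 libraries, A, N and T, all of them F0_MOR. The difference between F0_MOR and F0_SAL, 0.85 ± 0.30, was the smallest in p-value of the 78 hairpins with both arms measured, a description only, since the choice of miR-151-5p already fixes most of it.

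For miR-423 the mean log2 ratio was −1.64 ± 0.61, −1.34 ± 0.88, −1.31 ± 0.54 and −1.53 ± 0.61 in the 4 groups, and the 3p arm was the more abundant in 25 of 25 libraries. For miR-340 it was 5.43 ± 0.66, 5.22 ± 0.64, 5.68 ± 0.33 and 5.27 ± 0.86, and the 5p arm was the more abundant in 25 of 25, by 41.8 times at the mean. For miR-652 only 3p reads were counted in 24 of 25 libraries. Between F0_ABS-MOR and F0_ABS-SAL, limma called 0 of the 3 ratios and 0 of all 78 (0%, 1 at an unadjusted p under 0.05), with differences of 0.00 (95% interval −0.69 to 0.69) for miR-151, −0.23 (−1.05 to 0.60) for miR-423 and −0.41 (−1.18 to 0.36) for miR-340. On average over treatments, abstinent males differed by −0.39 ± 0.22 for miR-151 (limma adjusted p = 0.316), 0.07 ± 0.27 for miR-423 (0.941) and 0.15 ± 0.25 for miR-340 (0.783). None of the 3 was called, against 8 of 78 hairpins (10.3%). The average for miR-151 joins 0.04 in saline males and −0.81 in morphine males. It includes the F0_MOR libraries that entered the choice of miR-151-5p, so its p-value is not independent of that choice.

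**Figure D3:**
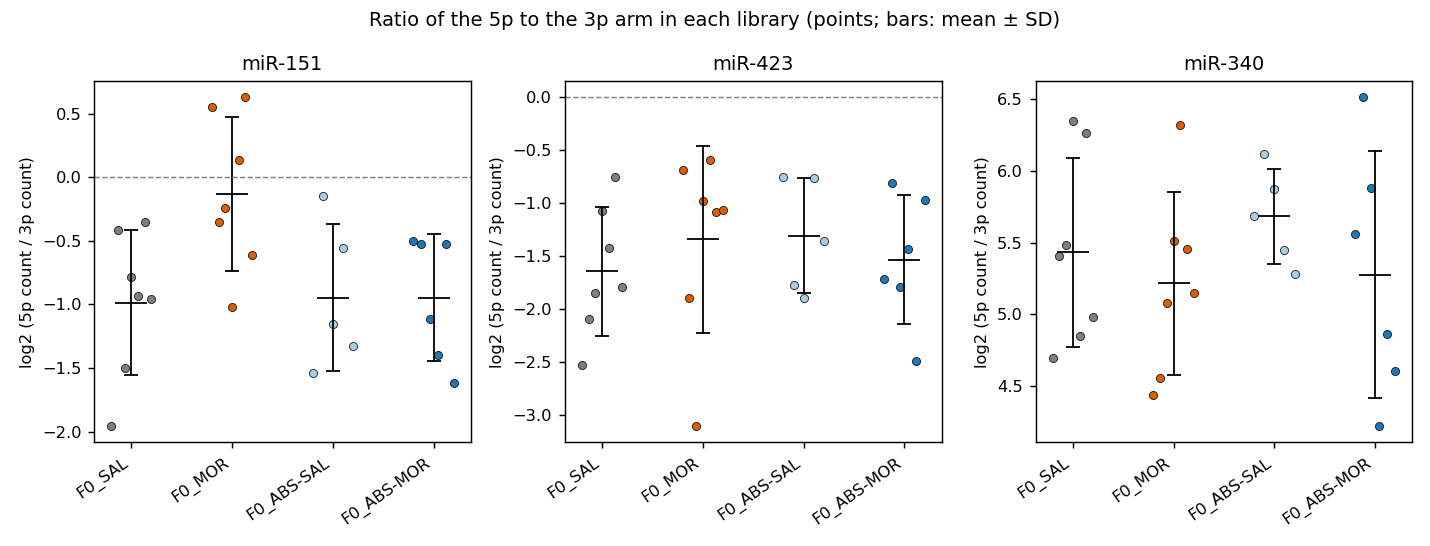
Log2 ratio of 5p to 3p counts in each library (points) by group for the 3 hairpins with both arms measured, with the group mean ± SD and, where in range, a dashed line at equal counts. The miR-151 mean is −0.13 in F0_MOR and between −0.99 and −0.95 in the other groups, and of its points only F0_MOR ones lie above 0.

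From library to library, no correlation between the arms of these hairpins passed its test. After each group's mean was removed, log2 CPM of miR-151-5p and miR-151-3p correlated over 25 libraries with Pearson r = 0.28 (permutation p = 0.193, adjusted p = 0.327 over 78 hairpins) and Spearman rho = 0.20 (permutation p = 0.349, adjusted p = 0.533). Without libraries R and T, r was 0.12. For the arms of miR-423, r was 0.20 (permutation p = 0.332, adjusted p = 0.499) and rho 0.15 (permutation p = 0.487, adjusted p = 0.643), with r = 0.33 without libraries B and G. For those of miR-340, r was −0.18 (permutation p = 0.405, adjusted p = 0.574) and rho −0.20 (permutation p = 0.379, adjusted p = 0.552), with r = −0.26 without libraries P and R. The median r of all 78 hairpins was 0.271, and 61 were above 0. The relation of miR-340's arms was 70th of the 78 in r.

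Levels of miR-340-5p went with those of the germ cell miRNAs, and for its partner arm no such relation passed its test. Over 25 libraries with group means removed, miR-340-5p correlated with the summed level of the 10 germ cell miRNAs with Pearson r = 0.767 and Spearman rho = 0.789 (permutation p = 1e-05 for both, the smallest that 100000 permutations can give, with adjusted p = 0.00208 and 0.00267 over 1869 relations of miRNAs with marker lists). Without the 2 libraries farthest from the median of the sum, r was 0.735. It was the 6th highest r of 307 miRNAs. Both measures share a library's scaling factor, and with scaling by total miRNA count r was 0.611. miR-340-3p had r = −0.413 (permutation p = 0.101, adjusted p = 0.337) and rho = −0.364 (adjusted p = 0.424), and r = −0.319 without the 2 libraries.

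miR-151-3p went the other way, with r = −0.717 (permutation p = 0.00076, adjusted p = 0.033), rho = −0.680 (adjusted p = 0.0687) and r = −0.592 without the 2 libraries. Here, too, both measures share a library's scaling factor, and with scaling by total miRNA count r was −0.854. The listed germ cell miRNAs summed to 363238 to 1408260 normalized counts per library, a large part of all miRNA counts. Under scaling to the total, a miRNA off the list can fall only because the list rises. The more negative r with that scaling is therefore no independent check. The germ cell sum itself had a group median of 1013100 normalized counts in F0_SAL and 857036 in F0_MOR, and of 625411 in F0_ABS-SAL and 725665 in F0_ABS-MOR. F0_SAL was highest, as for miR-340-5p, but the order of the other groups differed. The sum was lowest in F0_ABS-SAL and miR-340-5p in F0_ABS-MOR. For miR-652-3p, r was −0.187 with the germ cell sum (adjusted p = 0.701), 0.415 with the epithelial list (adjusted p = 0.261) and 0.40 with the muscle list (adjusted p = 0.247). No relation of miR-151-5p, miR-423-5p, miR-423-3p, miR-340-3p or miR-652-3p with any of the 6 lists passed an adjusted p of 0.1. The part of germ cell or other cell content in the group differences was not tested.

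**Figure D4:**
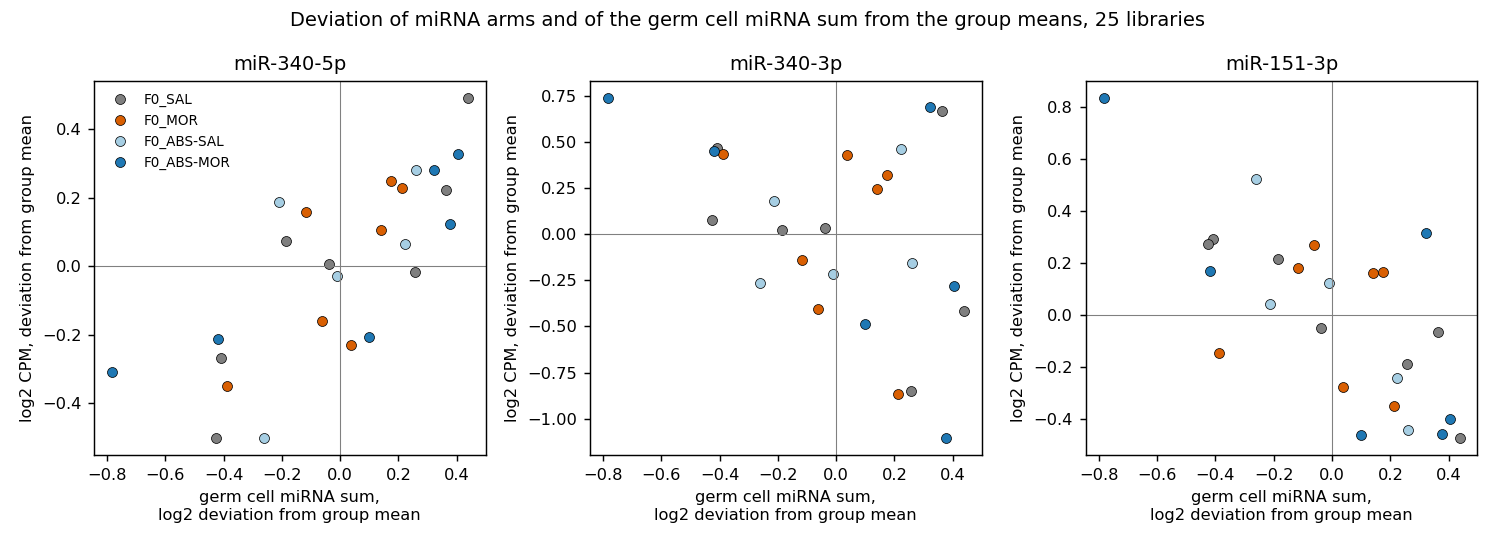
Deviation of miR-340-5p, miR-340-3p and miR-151-3p from their group means (y axis, log2 CPM) against that of the summed germ cell miRNAs (x axis, log2) in 25 libraries coloured by group. Points of miR-340-5p rise with the sum (r = 0.767), those of miR-151-3p fall (r = −0.717), and those of miR-340-3p scatter (r = −0.413).

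The miRNAs whose levels were most like each arm over the 25 libraries, with group means removed, also differed between arms of a hairpin, as a description with no test among 316 others. They were rno-miR-29b-3p (r = 0.668) for miR-151-5p and rno-miR-676 (0.788) for miR-151-3p. For miR-423-5p and miR-423-3p they were rno-miR-320-3p (0.672) and rno-miR-361-3p (0.737). For miR-340-5p the leading ones were rno-miR-34b-5p (0.807) and rno-miR-34c-5p (0.734), both on the germ cell list, and for miR-340-3p rno-let-7a-1-3p and rno-let-7c-2-3p (0.857 each). Whether these let-7 rows count the same reads was not examined. For miR-652-3p they were rno-miR-34a-5p (0.765) and the epithelial rno-miR-429 (0.760) and rno-miR-205 (0.744). Between the arms themselves, miR-340-3p and miR-652-3p ran most strongly against each other (r = −0.663).

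miR-28 and miR-708 belong to the same sequence family as miR-151, and their 5p arms share a seed, shown here to set them beside the miR-151 hairpin.
rno-miR-28-5p: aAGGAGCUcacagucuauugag
rno-miR-708-5p: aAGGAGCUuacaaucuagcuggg

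Their values differed from that of miR-151-5p in the comparison that chose the hairpins. In F0_MOR against F0_SAL the log2 fold change was −0.01 ± 0.22 for miR-28-5p, −0.20 ± 0.16 for miR-28-3p, 0.36 ± 0.38 for miR-708-5p and −0.33 ± 0.27 for miR-708-3p, values given without a test. On average over treatments, miR-28-3p was lower in abstinent males by 0.61 on the log2 scale (edgeR adjusted p = 2.24e-04). Its means were 1574 and 1370.3 normalized counts in F0_SAL and F0_MOR, and 966 and 956 in F0_ABS-SAL and F0_ABS-MOR. The value was −0.34 (adjusted p = 0.0375) with scaling by total miRNA count and −0.51 (adjusted p = 0.00633) with 1 factor from miRNA and ncRNA counts joined, both short of a call. miR-28-5p differed by −0.41 ± 0.17 (adjusted p = 0.043) and was not called. miR-708-5p was higher by 1.10 ± 0.27 (adjusted p = 0.00185) and miR-708-3p by 0.81 ± 0.20 (adjusted p = 0.00196). Raw counts of miR-708-5p went down to 2 in F0_SAL. Of the miR-151 arms, miR-151-5p, at −0.44, was close to miR-28-5p on this average only. From nonabstinent to abstinent, miR-151-5p differed by 0.00 in saline and −0.88 in morphine males, and miR-28-5p by −0.50 and −0.33. The F0_MOR values of miR-151-5p also entered its choice. miR-151-3p, at −0.02, lay between miR-28-3p and miR-708-3p. The differences between hairpins were not tested.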

How the data were processed

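Small RNA was sequenced from sperm of 25 rats. The authors prepared NEBNext small RNA libraries and processed the forward reads with sRNAbench, which trimmed adaptors, aligned reads to the rat genome (rn6 in the submitters' processing notes) and annotated them to miRBase. They deposited raw read counts per mature miRNA, 1 column per library, and analysed them with DESeq2. No count equalled 1, the smallest above 0 being 2. Columns name SAL or MOR and REG or TO. REG and TO are not expanded in the sources and were matched to nonabstinent and abstinent by group sizes, so libraries are known by letter and group only. The labels number the samples of a group as biological replicates. All 300 pairs of libraries differed far beyond sampling noise (chi-square per degree of freedom at least 27.2).

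Here the deposited counts were analysed in R 4.3.3 with edgeR 4.0.16: filterByExpr, TMM scaling (factors 0.701 to 1.26), 1 model of 4 groups, quasi-likelihood tests and Benjamini-Hochberg adjustment over 317 miRNAs. SE was taken as the log2 fold change over the square root of F. A miRNA was called if its adjusted p was below 0.1 and its log2 fold change passed 0.58 in size. Arm ratios were log2 of 5p over 3p counts, each plus 1, tested with limma 3.58.1 over 78 hairpins. Log2 CPM used a prior count of 2, and correlations used 100000 permutations within groups. The tests were tried on simulated data. DESeq2 1.42.0, limma-voom, other scalings and filters, depth as a covariate and leaving out each library were alternatives. The members, marker lists and relatives were chosen with earlier results of these data known. Named miRNAs are all arms of the 4 hairpins, all arms of miR-28 and miR-708, and the 3 miRNAs most like each arm, of which the leading ones are named. Besides these, rno-miR-3573-5p is named for its seed and rno-miR-150-5p for the paper's result. The deposited ncRNA counts served only for 1 alternative scaling. Intervals cover these libraries' spread, and floors counting error only.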

Additional observations from a re-analysis of the deposited data

How the results depend on the processing

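The tested differences of the arms were recomputed under 8 alternative settings and without each of the 25 libraries in turn. No paired analysis was possible because the columns carry no replicate numbers. Between F0_ABS-MOR and F0_ABS-SAL, 0 of 7 arms were called in every setting run, also with only those groups in the model, and the cause of the sign changes of these small values was not tested. They were −0.029 for miR-340-3p and 0.13 for miR-652-3p with limma-voom, −0.047 for miR-151-5p, −0.015 for miR-151-3p and −0.055 for miR-423-3p with 1 TMM factor from miRNA and ncRNA counts joined, and −0.0046 for miR-423-3p with depth as a covariate. Without 1 library, values ran from −0.17 to 0.28 for miR-151-5p, −0.056 to 0.26 for miR-151-3p, −0.29 to 0.042 for miR-423-5p, −0.031 to 0.28 for miR-423-3p and −0.18 to 0.033 for miR-652-3p. The edgeR, DESeq2 and limma adjusted p-values of this comparison stayed at 0.968 or above for all 7.

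On the average timepoint difference the count of arms called was 0 as reported and 1, miR-652-3p, with total miRNA count alone (0.81), 1 joined TMM factor (0.64), at least 10 counts in every library (0.60) and depth as a covariate (0.60). Leaving out a library gave 0 to 1. By the adjusted p alone the count was 3 as reported, 1 with total miRNA count, the joined factor and the 10-count filter, and 1 to 5 without 1 library (1 without F, 5 without E or S). miR-652-3p passed in all 8 settings, miR-151-5p failed in 4 (total count, joined factor, 10-count filter at adjusted p = 0.148, depth as a covariate at 0.136), and miR-423-3p failed in those 4 (0.138 and 0.437 in the last 2), with limma-voom (0.107) and without a filter (0.111). miR-151-3p changed sign, to 0.26 with total count, 0.071 with the joined factor, 0.0037 without a filter, 0.042 with the 10-count filter and 0.17 with depth as a covariate, and ran from −0.14 to 0.027 without 1 library. miR-340-5p changed sign with total count (0.069) but passed the adjusted p with depth as a covariate (−0.34, edgeR adjusted p = 0.0196). With limma-voom, miR-340-3p passed it as well (−0.45, adjusted p = 0.0520). The count of all miRNAs called was 110 as reported and 64 of 225 with the 10-count filter. Arm ratios kept 0 of 3 called in 3 alternative settings, and without 1 library those of miR-151 ran from −0.15 to 0.20 between abstinent groups and those of miR-423 from −0.073 to 0.17 over timepoints. The correlation of miR-151-5p with the germ cell sum moved from −0.10 to −0.36 with total count scaling, an alternative added after seeing the data. Such scaling can itself lower r with a list that makes up much of the total. Raw counts of miR-423-5p were 27 to 164 reads per library.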
